A study of Mus musculus with 12 samples.

Results

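The genes described here are 7 transcription factors that steer CD8+ T cells toward or away from effector fates: *Tbx21*, *Eomes*, *Id2*, *Zeb1*, *Zeb2*, *Bhlhe40* and *Irf4*. They were taken by symbol from the RNA-seq table of 25860 genes, and their chromatin was followed through the ATAC-seq peaks that the authors assigned to the same symbols, 26 of 23932 listed peaks. ATAC-seq measures open chromatin by the places where a transposase can insert into DNA.

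Both assays used CD8+ progenitor T cells (T_prog_) sorted from pancreatic lymph nodes, with 3 libraries per genotype in each assay. The *NOD-TCR 8.3 WT* group and the *NOD-TCR 8.3 UTX TCD* group were both NOD mice, the strain that develops autoimmune diabetes, and both carried the transgenic 8.3 T cell receptor, which recognizes a peptide of the β cell protein IGRP. The UTX TCD mice were *UTX fl/fl* with Cre driven by *Lck*, a gene switched on early in T cells of the thymus, to delete the histone demethylase UTX (gene *Kdm6a*) in T cells. Controls in the study's mouse line were Cre-negative littermates with floxed *UTX*, and only females were used. The age of the mice behind these libraries is not given in the sources used here. The sort gate is written as Ly108 without CXCR6 in the series' design text and as Ly108 without CD39 in the methods. Depth ran from 61512402 to 193568919 counted reads per RNA-seq library, with UTX TCD replicate 1 the shallowest.

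A CD8+ T cell that meets antigen can become a cytotoxic effector or remain a self-renewing progenitor. T-bet (*Tbx21*) and Eomesodermin (*Eomes*) are T-box factors that switch on cytotoxic and migration genes, T-bet more in terminal effectors and Eomesodermin more in memory and progenitor-derived cells. ID2 holds E proteins away from DNA and so favors effector cells, ZEB2 and its relative ZEB1 are repressors that bind E-boxes and act at opposite ends of the effector to memory axis, BHLHE40 is an activation-induced repressor, and IRF4 rises with the strength of T cell receptor signaling.

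The cells carried the markers of their label. The mean normalized count of *Cd8a* was 272155 ± 2012 over the WT and 298501 ± 23849 over the UTX TCD libraries, and that of *Tcf7*, the gene of the progenitor factor TCF1, was 235632 ± 8264 and 224012 ± 4856 (SD, n = 3). The other CD8+ T cell markers were also high but did not move together. *Cd8b1*, with means of 141469 in WT and 109592 in UTX TCD libraries, was lower in each UTX TCD library than in any WT library (log2 fold change -0.37). So were *Cd3d* (-0.28) and *Cd3g* (-0.26), while *Cd3e* (0.17) was higher. *Entpd1*, which encodes the gated-out marker CD39, was listed at 4.42 to 29.6 in all 6 libraries. *Cxcr6* RNA was not absent: it was 12757, 9619 and 13724 in the WT libraries and 5286, 5994 and 5695 in the UTX TCD libraries. The count of the deleted gene *Kdm6a* was 28365, 28949 and 29172 in WT against 24158, 24792 and 24579 in UTX TCD libraries, lower in each UTX TCD library than in any WT library but only by 0.23 on the log2 scale (log2 fold change -0.23, SE 0.04). A count over the whole gene includes reads from exons outside the floxed part, so it checks the labels weakly.

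All 7 factors passed the filter of a mean normalized count of 10, and 4 of them rose in UTX TCD cells: *Tbx21*, *Bhlhe40*, *Eomes* and *Irf4*. None fell. *Id2*, *Zeb1* and *Zeb2* did not pass the test. Here and below, a gene rose or fell where its limma adjusted p over all 14459 genes tested was under 0.05 and its log2 fold change, UTX TCD over WT, was beyond 0.5 in size. Of all genes tested, 17.6% were called, 10.5% higher and 7.05% lower. The 3 libraries of each genotype did not overlap in 4 of 7 factors, beside 51.9% of all genes tested. Whether the share of factors differs from that of all genes was not tested, since the factors were chosen with results known. In sorted bulk samples, a different share of cells that express a gene and a different amount of RNA per cell cannot be told apart.

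Of the libraries, WT replicate 2 and UTX TCD replicate 3 were set apart at these genes. WT replicate 2 had the highest WT count in 6 of 7 factors (36.3% of all genes tested), UTX TCD replicate 3 the highest UTX TCD count in 5 of 7 (39.3%), and both held in 5 of 7 (17.5%). Leaving out both, a choice made after seeing the data, 4 factors were still called. Without UTX TCD replicate 3 alone, 2 were called.

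**Figure D1:**
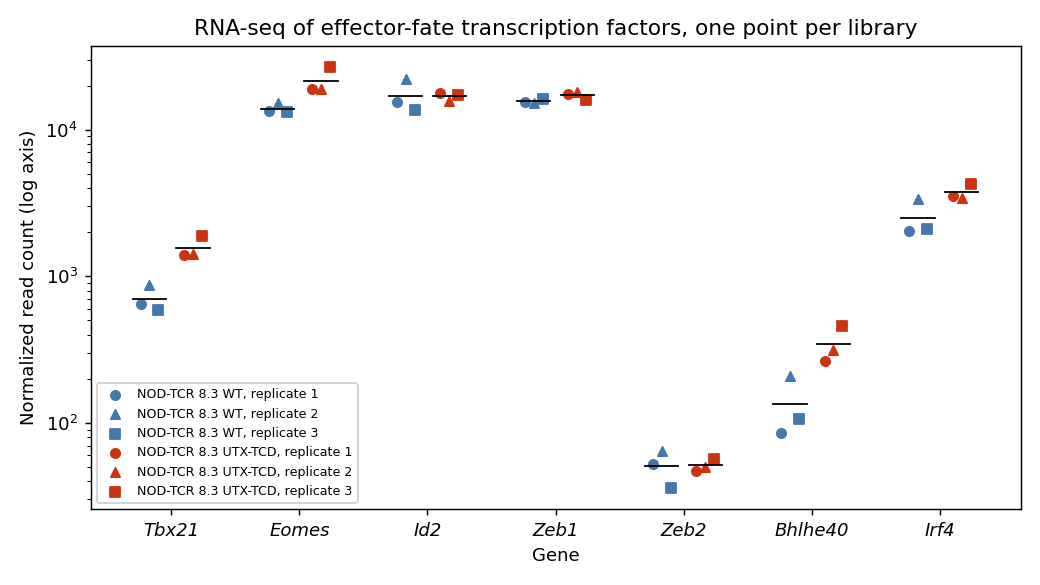
Normalized read count (log axis) of each transcription factor in each of the 6 RNA-seq libraries, blue for *NOD-TCR 8.3 WT* and red for *NOD-TCR 8.3 UTX TCD*, with a black line at each genotype's mean. The UTX TCD points lie above all WT points for *Tbx21*, *Eomes*, *Bhlhe40* and *Irf4* and overlap them for *Id2*, *Zeb1* and *Zeb2*.

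*Tbx21*, on chromosome 11 at chr11:97098007-97115331 (GRCm38, the build also called mm10), had normalized counts of 646, 877 and 589 in the WT libraries and 1404, 1420 and 1872 in the UTX TCD libraries. Every UTX TCD library was above every WT library, by a wide gap. The mean went from 704 ± 152 to 1565 ± 266 (SD, n = 3), a 2.23-fold rise (log2 fold change 1.16, SE 0.16, limma adjusted p = 0.00057). It remained called under every alternative tried and without any single library, with log2 fold changes from 1.02 to 1.33.

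*Eomes*, at chr9:118478186-118486132, had counts of 13370, 15315 and 13176 in WT and 19100, 19086 and 26829 in UTX TCD libraries. The groups did not overlap, and UTX TCD replicate 3 stood well above the other UTX TCD libraries. The rise was 1.54-fold, from 13954 ± 1183 to 21671 ± 4466 (SD, n = 3; log2 fold change 0.62, SE 0.12, limma adjusted p = 0.00388). Without UTX TCD replicate 3 the log2 fold change was 0.46 (adjusted p = 0.0017), under the fold limit.

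Both T-box factors rose, but *Tbx21* rose more. The log2 ratio of *Tbx21* to *Eomes* counts, in which gene length cancels between libraries, was -4.37, -4.13 and -4.48 in WT and -3.77, -3.75 and -3.84 in UTX TCD libraries. The genotypes did not overlap, and the mean ratio was 0.54 higher in UTX TCD cells. Per kilobase of exon, *Eomes* had 12.4, 10.5 and 13.4 times the *Tbx21* level in the WT libraries and 8.15, 8.05 and 8.58 times in the UTX TCD libraries. *Eomes* was thus the more abundant T-box transcript in all 6 libraries. This ratio was described without a test.

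*Bhlhe40*, at chr6:108660629-108666925, was a low transcript with the largest fold rise of the 7. Its normalized counts were 85.2, 210 and 106 in WT and 265, 313 and 461 in UTX TCD libraries. The groups did not overlap, although WT replicate 2 came near UTX TCD replicate 1. The mean went from 134 ± 67 to 346 ± 102 (SD, n = 3; log2 fold change 1.44, SE 0.33, limma adjusted p = 0.00778). Leaving out each library in turn gave log2 fold changes from 1.17 to 1.82, all called.

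*Irf4*, at chr13:30749233-30766981, had counts of 2046, 3366 and 2097 in WT and 3541, 3440 and 4267 in UTX TCD libraries. The highest WT library, replicate 2, and the lowest UTX TCD library, also replicate 2, nearly met. The mean went from 2503 ± 748 to 3749 ± 451 (SD, n = 3; log2 fold change 0.62, SE 0.18, limma adjusted p = 0.0212). This was the least firm of the 4 rises: the call was lost with DESeq2 (0.59, adjusted p = 0.0658) and in limma fits without WT replicate 1 (0.49, adjusted p = 0.074), WT replicate 3 (0.51, adjusted p = 0.0662) or UTX TCD replicate 3 (0.52, adjusted p = 0.0731). Over all alternatives the adjusted p ranged from 0.000189 to 0.074.

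*Id2*, at chr12:25093799-25096092, was high in both genotypes, with counts of 15459, 22179 and 13630 in WT and 17806, 15612 and 17275 in UTX TCD libraries. The UTX TCD libraries all lay inside the WT range. The log2 fold change was 0.01 (SE 0.15, 95% interval -0.33 to 0.35, limma adjusted p = 0.953), so small changes in either direction were within the error. The WT spread came mostly from replicate 2: without it the log2 fold change was 0.22 (adjusted p = 0.0523).

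The ZEB pair was unequal in level and showed no call. *Zeb1*, at chr18:5591327-5775468, had counts of 15450, 15118 and 16234 in WT and 17491, 17996 and 15998 in UTX TCD libraries. UTX TCD replicate 3 fell inside the WT range and the others lay above it (log2 fold change 0.14, SE 0.05, limma adjusted p = 0.0713). *Zeb2*, at chr2:44983512-45117442, was listed at 52.5, 64.2 and 35.8 in WT and 47.2, 49.6 and 56.8 in UTX TCD libraries, which rests on 21 to 77 reads per library. Its log2 fold change of 0.05 had a 95% interval from -0.57 to 0.66. Per kilobase of exon, *Zeb1* exceeded *Zeb2* by 458 to 880 times in the WT and 547 to 719 times in the UTX TCD libraries, and the log2 ratio of *Zeb2* to *Zeb1* overlapped between genotypes (mean difference -0.09).

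Of the genes that overlap the factors on the map, *Gm33408* at *Eomes* is not in the table. *Gm10125*, which overlaps the *Zeb1* start, had means of 19.7 and 25.3, *Zeb2os* had 0.33 and 0.758, and *0610040F04Rik* at *Bhlhe40* had 2.89 and 0.75, in WT and UTX TCD respectively. The strand setting of the counting is not given in the sources used here, so reads from such overlaps cannot be assigned with certainty.

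Levels can be ordered among the 7 genes only per length. Per kilobase of merged exon (GENCODE annotation), the WT order was *Id2* (7010 ± 1846 normalized counts per kb, SD, n = 3), *Eomes* (3358 ± 285), *Zeb1* (1520 ± 55.8), *Irf4* (510 ± 152), *Tbx21* (283 ± 61.3), *Bhlhe40* (28.4 ± 14.2) and *Zeb2* (2.55 ± 0.714). No neighbors in that order overlapped over the WT libraries. The UTX TCD order was the same, at 6931 ± 469, 5216 ± 1075, 1672 ± 101, 765 ± 92.1, 629 ± 107, 73.6 ± 21.6 and 2.57 ± 0.248. There 2 pairs of neighbors overlapped: the highest *Eomes* library (6457) exceeded the lowest *Id2* library (6404), and the highest *Tbx21* library (752) exceeded the lowest *Irf4* library (702). Among 13729 tested genes with a length, *Id2* stood at percentile 93.8 of the WT level and *Zeb2* at percentile 2.52, while *Tbx21* went from percentile 35.9 in WT to 47.9 in UTX TCD cells.

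The genes whose profile over the 6 libraries was most like that of a called factor were found by the root mean square difference of centred log2 values among 11694 genes with a mean of at least 100. For *Tbx21* they were *Ankle1* (difference 0.037), *Zfp975* (0.075) and *Ldhd* (0.081). For *Eomes* they were *Fam228b* (0.034), *Aplp1* (0.045) and *Cdca8* (0.046). For *Irf4* they were *Phactr2* (0.047), *Zfp970* (0.071) and *Gpt2* (0.072). *Bhlhe40* had looser matches, *Hic1* (0.184), *Nr4a2* (0.188) and *Ddx43* (0.219). *Nr4a2*, which encodes an orphan nuclear receptor induced by antigen receptor signaling, had counts of 261, 486 and 275 in WT and 927, 837 and 1326 in UTX TCD libraries.

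Effector genes commonly linked to T-bet and Eomesodermin had calls in both directions. Of 22 such genes, 19 were tested, 2 rose and 5 fell, beside 10.5% higher and 7.05% lower among all genes tested, and the list median of the log2 fold change was -0.29, beside -0.000 over all genes tested. Whether the list differs from all genes was not tested. The chemokine *Xcl1* fell from 992, 1358 and 978 to 220, 227 and 447 (log2 fold change -1.95, SE 0.26, limma adjusted p = 0.000422). *Gzma*, which encodes the protease granzyme A, fell from 235, 195 and 211 to 103, 90.5 and 113 (-1.06, SE 0.17, adjusted p = 0.00104). In both genes every UTX TCD library was below every WT library.

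*Il12rb2*, the signaling chain of the IL-12 receptor, fell from 1102 ± 64.8 to 568 ± 67.5 (SD, n = 3; log2 fold change -0.96), and the protease gene *Ctsw* from 49901 ± 1979 to 34708 ± 2421 (-0.53). *Ctsw* passed the fold limit narrowly and fell short of it without UTX TCD replicate 3 (-0.47) and with libraries scaled to the same sum (-0.46). The chemokine *Ccl5* was 685, 1089 and 631 in WT and 227, 190 and 672 in UTX TCD libraries. UTX TCD replicate 3 lay inside the WT range, and although the call was made (-1.34, limma adjusted p = 0.0325), it was lost with edgeR, with DESeq2 and without WT replicate 1, WT replicate 2, UTX TCD replicate 1 or UTX TCD replicate 2, with log2 fold changes from -0.99 to -1.43 there.

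The genes of this list that rose were *Il2rb* and *Ccl3*. *Il2rb*, the β chain of the IL-2 and IL-15 receptors, was 38451, 41256 and 37165 in WT and 62265, 61468 and 56764 in UTX TCD libraries (log2 fold change 0.63, SE 0.05, limma adjusted p = 3.65e-05). *Ccl3* rose on very low counts, from 4.95, 0.987 and 4.58 to 20.2, 19.2 and 16.2 (2.27, SE 0.53, adjusted p = 0.00811). It was tested in 14 of the 18 alternatives, and with any single UTX TCD library left out its mean was under the filter. Among those not called, the pore-forming *Prf1* had a log2 fold change of 0.13, *Klrk1* -0.03, *Il18r1* 0.22 and *Nkg7* -0.46, the last with an adjusted p of 0.00127 but under the fold limit.

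**Figure D2:**
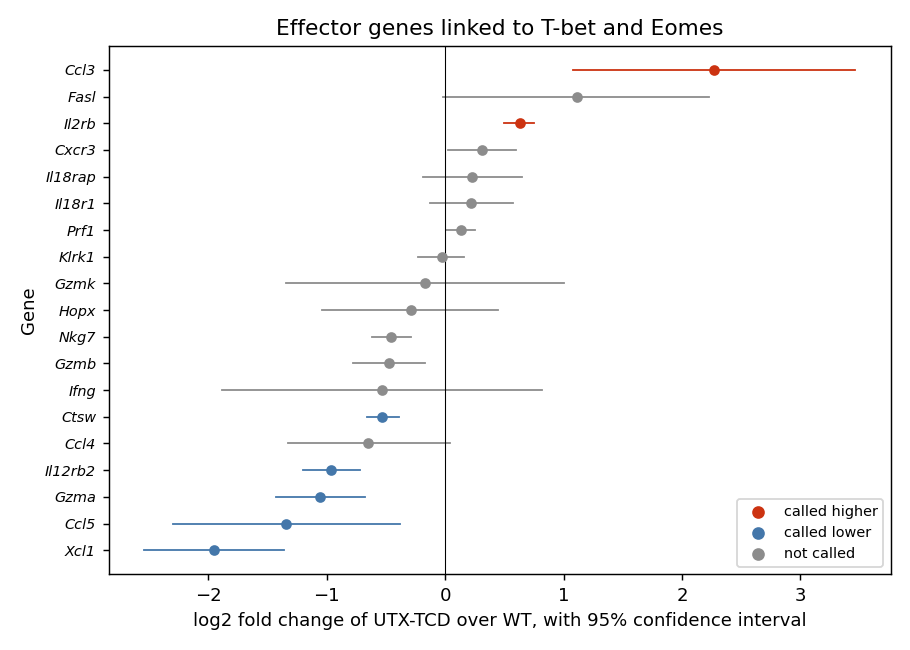
log2 fold change, UTX TCD over WT, of the 19 tested effector genes linked to T-bet and Eomesodermin, with the 95% confidence interval as a bar; red genes were called higher, blue lower and grey not called. The 5 blue genes run from *Xcl1* at -1.95 to *Ctsw* at -0.53, and the 2 red genes are *Ccl3* at 2.27 and *Il2rb* at 0.63.

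In the T-box family, *Tbx21* and *Eomes* were the called members among 5 tested of 17, beside 17.6% called among all genes tested. *Mga* (log2 fold change 0.09), *Tbx6* (-0.38) and *Tbx2* (0.73, adjusted p = 0.0828) were not called. The *Tbx2* counts were low, 95.1, 42.5 and 85.4 in WT and 128, 119 and 105 in UTX TCD libraries.

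Among the ID proteins and the E proteins they bind, 6 of 7 genes were tested and 1 rose, beside 10.5% of all genes tested. *Tcf4*, which encodes the E protein E2-2, went from 734, 936 and 679 to 1593, 1668 and 1198 (log2 fold change 0.92, SE 0.15, limma adjusted p = 0.00144). The more abundant E protein genes *Tcf12* (-0.05) and *Tcf3* (-0.11) did not pass the test. *Id3*, the ID gene of progenitor and memory cells, had counts of 1755, 2918 and 1933 in WT and 2375, 2396 and 3574 in UTX TCD libraries, which overlap (log2 fold change 0.35, adjusted p = 0.211). The log2 ratio of *Id2* to *Id3* was 2.96 ± 0.16 in WT and 2.63 ± 0.32 in UTX TCD libraries (SD, n = 3), also with overlap.

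Of the 9 interferon regulatory factors, all tested, 3 rose and none fell, beside 10.5% higher and 7.05% lower among all genes tested. The list median of the log2 fold change was 0.37, beside -0.000 over all genes tested. Whether this list differs from all genes was not tested. *Irf7*, the factor that amplifies type I interferon responses, rose most, from 15321, 12369 and 16108 to 36053, 38041 and 35925 (log2 fold change 1.34, SE 0.09, limma adjusted p = 8.1e-06). *Irf5* rose from 138 ± 28.9 to 297 ± 22.1 (SD, n = 3; log2 fold change 1.12), and *Irf4* by 0.62 as above. *Irf9* was higher in every UTX TCD library by a log2 fold change of 0.37 (adjusted p = 0.000662), under the fold limit. *Irf1* (-0.04), *Irf2* (0.14) and *Irf3* (-0.02) were not called.

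IRF4 binds many sites together with BATF and JUN proteins. Of 8 partner genes, 5 were tested and *Jun* rose, from 1273, 1122 and 1339 to 2078, 2260 and 2442 (log2 fold change 0.86, SE 0.09, limma adjusted p = 0.000105). The share that rose among all genes tested was 10.5%. *Batf* (0.09) and *Spib* (0.78, adjusted p = 0.114) did not pass the test, and *Junb* (-0.21) and *Jund* (-0.39) had negative values within the fold limit. Neither of the 2 tested genes related to the ZEB proteins and BHLHE40, the corepressor genes *Ctbp1* (-0.14) and *Ctbp2* (0.22), was called.

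Of 26 receptors, kinases and signal-driven factors that feed into these genes, all tested, 1 rose (*Il2rb*, above) and 4 fell, beside 10.5% higher and 7.05% lower among all genes tested. *Il12rb1* fell from 1694, 1751 and 1814 to 706, 641 and 843 (log2 fold change -1.27, SE 0.10, limma adjusted p = 2.7e-05), beside the fall of *Il12rb2*. Both chains of the IL-12 receptor, whose signal through STAT4 is a known inducer of *Tbx21*, were thus lower in the cells in which *Tbx21* was higher. *Ifngr1*, the binding chain of the interferon-γ receptor, fell from 19767 ± 1629 to 10078 ± 924 (SD, n = 3; -0.97), and *Ifngr2* from 8491 ± 438 to 5905 ± 420 (-0.53). *Ifngr2* fell short of the fold limit without WT replicate 3 (-0.49), without UTX TCD replicate 3 (-0.47) and with libraries scaled to the same sum (-0.46). Among the abundant genes not called, *Jak1* had a log2 fold change of 0.11, *Tgfbr2* 0.18 and *Il2rg* -0.27.

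Of 11 progenitor and memory factors, all tested, *Bach2* rose (from 26029 ± 916 to 39205 ± 1980, SD, n = 3; log2 fold change 0.59, limma adjusted p = 3.03e-05) and none fell. Among all genes tested, 10.5% rose and 7.05% fell. The list median was 0.33, beside -0.000 over all genes tested. *Lef1* had a log2 fold change of 0.38, *Satb1* 0.04, *Tcf7* -0.07 and *Foxo1* -0.15, none of them called. Of 11 tested other effector factors, *Maf* rose most of all genes in these lists, from 297, 369 and 288 to 2094, 2019 and 2346 (2.76, SE 0.12, adjusted p = 5.07e-07), while *Rbpj* (-0.74) and *Nfil3* (-0.72) fell. *Ikzf3* (0.16), *Runx3* (0.12), *Stat4* (0.08) and *Hif1a* (0.01) were not called. Whether the counts of either list differ from the shares of all genes was not tested.

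Markers of other cells that express these factors were read beside them. For NK cells, which carry T-bet, Eomesodermin and ZEB2, the summed counts of 6 markers were 57.5, 81.9 and 38.9 in WT and 83.2, 66.5 and 122 in UTX TCD libraries. These sums were far below *Eomes* and below *Tbx21*, but not below *Zeb2*. *Zeb2* was at 52.5, 64.2 and 35.8 in WT and 47.2, 49.6 and 56.8 in UTX TCD libraries, under the sum in each library. The defining NK gene *Ncr1* was at 0 in 4 of 6 libraries and at most 6.93 in the rest, and *Klre1* rose from 11.9 to 56.5. *Klrb1c*, the higher of the 2 tested in every WT library, went the other way without a call, with means of 33.6 and 15 (log2 fold change -1.18, adjusted p = 0.14). For plasma cells, which carry IRF4, *Sdc1* (8.63 to 21.6) and *Jchain* (18.5 to 52.6) rose on counts far below those of *Irf4*, *Mzb1* was too low to test (2.97, 5.92 and 1.53 in WT and 20.2, 11.2 and 11.8 in UTX TCD libraries) and *Tnfrsf17* reached at most 5.92. The call of *Sdc1* was lost without WT replicate 1 (1.30), WT replicate 3 (1.06), UTX TCD replicate 1 (1.23) or UTX TCD replicate 2 (1.21), and that of *Jchain* without WT replicate 1 (1.40), WT replicate 3 (1.08), UTX TCD replicate 1 (1.58) or UTX TCD replicate 3 (0.98). Also lost were the *Sdc1* call with DESeq2 (adjusted p = 0.0866) and the *Jchain* call with the replicate block (adjusted p = 0.0819) and with no filter on low counts (adjusted p = 0.0612). The summed counts of the 5 plasma cell markers, 5144, 5091 and 5259 against 5605, 5535 and 5958, were mostly *Xbp1*, which T cells also express.

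B cell markers summed to 2957, 2442 and 2805 in WT and 1226, 1083 and 1008 in UTX TCD libraries, mostly *Cd79b*, which fell (log2 fold change -1.98), while *Ms4a1* rose on low counts (1.72) and *Pax5* and *Ebf1* reached at most 11.1. Macrophage and dendritic cell markers summed to 1161, 1152 and 926 against 1422, 1120 and 1316, mostly *Cd68*, and 1 of 7 tested, *Csf1r*, fell. Markers of CD4+ and regulatory T cells summed to at most 518 in any library, and 2 of 4, *Cd4* and *Zbtb7b*, fell. The call of *Ms4a1* was lost without WT replicate 1 (1.38), WT replicate 3 (1.60), UTX TCD replicate 2 (1.84) or UTX TCD replicate 3 (1.21). The call of *Cd4* was lost without WT replicate 1 (-0.75), WT replicate 2 (-0.65), WT replicate 3 (-0.81), UTX TCD replicate 1 (-0.78) or UTX TCD replicate 3 (-0.54), and also with DESeq2 (-0.73), with libraries scaled to the same sum (-0.67) and with no filter on low counts (adjusted p = 0.0673). Among γδ and NKT cell markers, *Sox13* (1774 to 5195) rose at sizeable counts, while *Il17a* was at 0 in all 6 libraries and *Zbtb16* reached at most 10.9. The 7 markers of effector (T_med_) cells that the gate removes summed to 13705, 10581 and 14700 in WT and 5884, 6581 and 6421 in UTX TCD libraries, mostly *Cxcr6*, and 3 of 5 tested fell (*Cxcr6*, *Havcr2*, *Pdcd1*). *Havcr2* was low, at 17.8, 21.7 and 14.5 in WT and 2.25, 3.2 and 3.69 in UTX TCD libraries. It was tested in 13 of the 18 alternatives, and with any single WT library left out its mean was under the filter. The call of *Pdcd1* was lost without any WT library (replicate 1 -0.77, replicate 2 -0.57, replicate 3 -0.72), without UTX TCD replicate 1 (-0.62) and without UTX TCD replicate 2 (-0.50), and also with edgeR (-0.64) and with libraries scaled to the same sum (-0.63). Beside these marker counts, 10.5% of all genes tested rose and 7.05% fell. The part of these cell types in the results above was not tested.

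Chromatin was described from the authors' mean log2 concentration of each peak per genotype. That table holds peaks the authors had already called different at an FDR under 0.05, without values per library, so no spread or test can be given and peaks that did not differ are not in it. All 7 factors had at least 1 listed peak, as did 47.6% of genes tested. Of their 26 peaks, 25 were higher in UTX TCD cells and 1 was lower, beside 68.8% higher among all 23932 listed peaks. The 26 differences, UTX TCD minus WT, ran from -1.10 to 1.77 with a median of 0.61, beside a median of 0.49 over all listed peaks. The absolute difference was over 0.5 in 18 of the 26, beside 73.1% of all listed peaks.

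**Figure D3:**
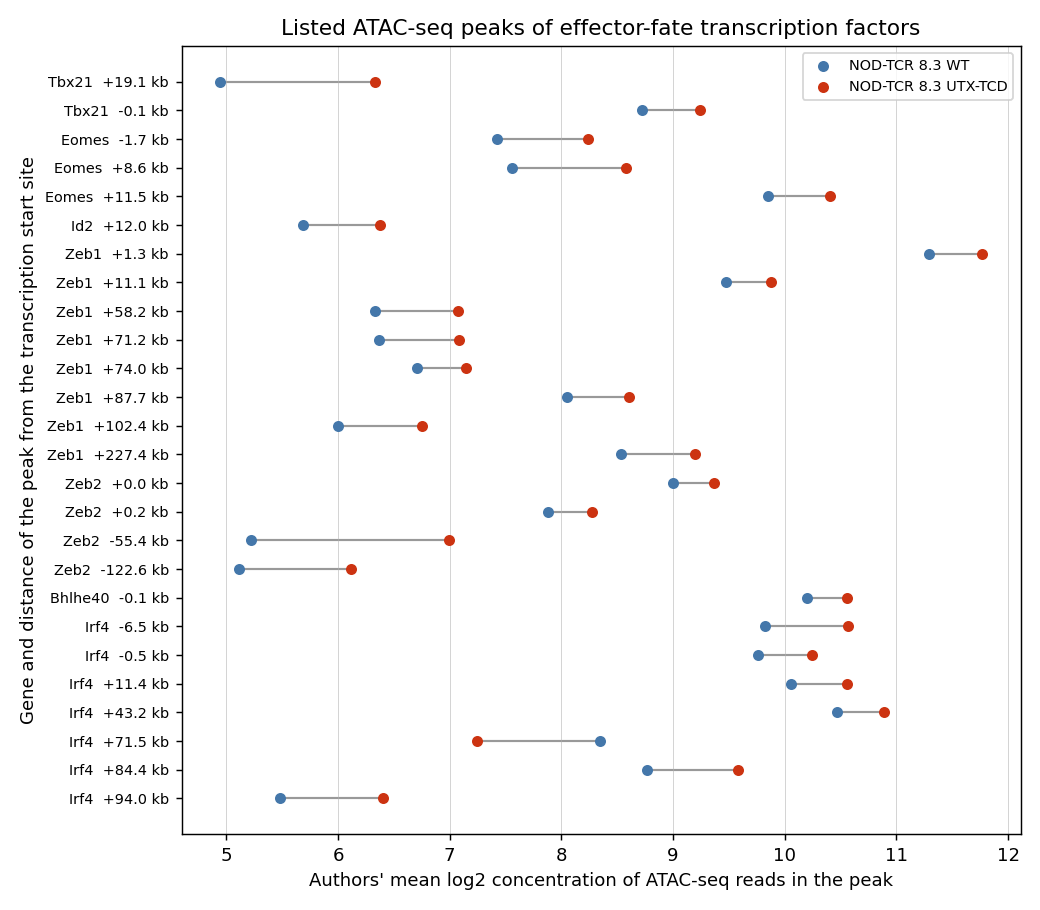
The authors' mean log2 concentration of ATAC-seq reads in WT (blue) and UTX TCD (red) cells for each of the 26 listed peaks, labelled by gene and by distance from the annotated transcription start site in kb; no error is available for these means. The red point lies right of the blue point in 25 peaks and left of it in 1, at *Irf4* 71.5 kb from the start.

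*Tbx21* had 2 listed peaks. One covered its promoter and start, chr11:97115258-97115658, where the authors' mean went from 8.72 in WT to 9.24 in UTX TCD cells. The other, chr11:97096064-97096464, lay in intergenic DNA past the 3′ end of the gene, 19.1 kb from the start, and went from 4.94 to 6.33, a difference of 1.39. The weak site thus gained more than the strong promoter did on the log2 scale. *Eomes* had 3 peaks: 1 upstream at 1.7 kb (7.42 to 8.24), 1 just past the 3′ end at chr9:118486554-118486954 (7.56 to 8.58, a difference of 1.02) and 1 at 11.5 kb (9.85 to 10.41). None of the *Eomes* peaks overlapped the promoter window.

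*Bhlhe40* had a single listed peak, called promoter by the authors, at chr6:108660337-108660737, and the difference there was among the smallest of the 26 (10.20 to 10.56, a difference of 0.36). The RNA of the same gene had the largest log2 fold change of the 7, so the sizes of the 2 readouts did not go together there. The opposite held at *Zeb2*. Its RNA was low in both genotypes, yet it had 4 listed peaks, all higher in UTX TCD cells. The one 55.4 kb upstream, chr2:45172649-45173049, went from 5.22 to 6.99, and this difference of 1.77 was the largest of the 26. A second upstream peak, at 122.6 kb, went from 5.11 to 6.12. The peaks at 2 annotated *Zeb2* starts, chr2:45110133-45110533 (to 9.37 in UTX TCD cells, a difference of 0.36) and chr2:45117052-45117452 (7.88 to 8.27), were strong in cells with few reads of *Zeb2* RNA.

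*Zeb1* had 8 listed peaks, the most of the 7, and all were higher in UTX TCD cells by 0.41 to 0.75. Of these, 6 lay in intron 2 as the authors numbered it, 1 in exon 2 close to the start and 1 in intergenic DNA at 227.4 kb. The largest difference was at chr18:5694841-5695241 (6.00 to 6.75) in intron 2, and the strongest peak, chr18:5593714-5594114, went from 11.29 to 11.77. *Zeb1* RNA was not called. *Id2* had a single peak, in intergenic DNA at chr12:25083930-25084330, which went from 5.69 to 6.38, and its RNA did not pass the test either.

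*Irf4* had 7 listed peaks, of which 3 lay at or near the gene: the promoter peak at chr13:30748540-30748940 (9.76 to 10.24), a peak 6.5 kb upstream at chr13:30742517-30742917 (9.82 to 10.57) and a peak in intron 7 at chr13:30760429-30760829 (10.06 to 10.56). The other 4 lay inside the neighboring gene *Exoc2*, between 43.2 and 94.0 kb from the *Irf4* start, and carry the *Irf4* symbol in the authors' annotation. One of these, chr13:30820574-30820974, in intron 26 of *Exoc2*, was the only member peak that was lower in UTX TCD cells (8.35 to 7.24, a difference of -1.10), while the peaks on both sides of it, at 43.2 kb (10.47 to 10.89) and 84.4 kb (8.77 to 9.58), were higher. *Exoc2* RNA was 14236, 12990 and 14536 in WT and 10914, 10812 and 11318 in UTX TCD libraries, lower in every UTX TCD library but under the fold limit (log2 fold change -0.34, SE 0.05, limma adjusted p = 0.000911). Which gene a peak in *Exoc2* belongs to was not tested.

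The sequences of the *Tbx21* promoter, of the single lower peak and of some of the higher peaks of *Tbx21*, *Eomes* and *Zeb2* are shown because they are the DNA whose accessibility differed. They were read from the RefSeq genome GRCm38.p6, and capitals mark letters of 8 motifs searched on both strands: the ZEB E-box CACCTG, the BHLHE40 E-box CACGTG, the T-box half-site TCACAC, TCF1/LEF1 CTTTGA, STAT TTCNNNGAA, AP-1 TGANTCA, IRF GAAANNGAA and RUNX TGTGGT. RefSeq promoter windows matched 5 of the 7 genes, all but *Zeb1* and *Bhlhe40*, and the *Tbx21* window, minus strand, chr11:97115282-97115581, holds a ZEB E-box on its complementary strand, as do 20.2% of 32851 promoter windows of 300 bases.

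*Tbx21* promoter: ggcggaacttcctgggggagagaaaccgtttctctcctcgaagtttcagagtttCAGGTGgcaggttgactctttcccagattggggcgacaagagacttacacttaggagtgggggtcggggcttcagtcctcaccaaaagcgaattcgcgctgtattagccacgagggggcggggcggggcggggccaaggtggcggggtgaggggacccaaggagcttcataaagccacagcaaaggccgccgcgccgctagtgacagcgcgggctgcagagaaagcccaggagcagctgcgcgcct

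The central 201 bases of the peak past the 3′ end of *Tbx21*, chr11:97096164-97096364, plus strand, hold a RUNX match on the complementary strand and a STAT match. Among the same-length centres of 23908 listed peaks, 28.2% hold the RUNX letters and 5.89% the STAT letters.

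*Tbx21* 3′ peak: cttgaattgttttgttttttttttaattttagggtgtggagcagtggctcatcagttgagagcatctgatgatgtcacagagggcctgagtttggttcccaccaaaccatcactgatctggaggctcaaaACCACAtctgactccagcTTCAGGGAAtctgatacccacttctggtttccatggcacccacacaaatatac

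At *Eomes*, the upstream peak, chr9:118476340-118476540, plus strand, holds a TCF1/LEF1 match and a T-box match, letters found in 19.1% and 14.6% of the peak centres. The *Eomes* peak with the largest difference, chr9:118486654-118486854, plus strand, holds no letters of the 8 motifs.

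*Eomes* upstream peak: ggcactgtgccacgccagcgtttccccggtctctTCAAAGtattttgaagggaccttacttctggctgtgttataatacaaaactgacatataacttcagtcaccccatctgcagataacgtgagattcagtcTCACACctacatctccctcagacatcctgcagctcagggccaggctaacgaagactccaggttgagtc

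*Eomes* 3′ peak: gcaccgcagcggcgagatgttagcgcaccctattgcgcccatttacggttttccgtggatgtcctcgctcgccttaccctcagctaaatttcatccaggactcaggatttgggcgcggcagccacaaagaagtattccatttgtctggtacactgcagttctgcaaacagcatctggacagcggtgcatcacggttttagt

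The *Zeb2* upstream peak, chr2:45172749-45172949, plus strand, holds an AP-1 match (7.6% of peak centres) and a TCF1/LEF1 match. The lower *Irf4* peak inside *Exoc2*, chr13:30820674-30820874, plus strand, holds a BHLHE40 E-box (5.03% of peak centres), a TCF1/LEF1 match and a T-box match.

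*Zeb2* upstream peak: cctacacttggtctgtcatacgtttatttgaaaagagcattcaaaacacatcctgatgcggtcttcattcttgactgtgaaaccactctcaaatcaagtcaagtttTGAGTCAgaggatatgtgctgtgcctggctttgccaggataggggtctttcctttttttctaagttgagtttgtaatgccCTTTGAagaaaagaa

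*Irf4* lower peak: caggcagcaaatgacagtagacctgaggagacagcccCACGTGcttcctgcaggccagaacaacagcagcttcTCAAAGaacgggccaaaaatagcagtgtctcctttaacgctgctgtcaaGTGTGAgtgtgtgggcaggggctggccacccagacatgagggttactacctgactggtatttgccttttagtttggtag

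Over all 26 member peaks, the centres held a TCF1/LEF1 match in 5 (19.1% of all listed peak centres), AP-1 in 4 (7.6%), T-box in 4 (14.6%), ZEB E-box in 3 (18.4%), BHLHE40 E-box in 2 (5.03%), RUNX in 2 (28.2%), STAT in 1 (5.89%) and IRF in 1 (7.35%). Whether these counts differ from the shares was not tested. These matches describe letters and not binding.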

How the data were processed

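RNA-seq and ATAC-seq were each measured in 3 libraries per genotype, with genotypes and replicates as the labels give them. For RNA-seq the authors aligned reads to mm10 with HISAT2 2.2.1, counted them with featureCounts and deposited the count of each gene divided by a DESeq2 size factor per library, a normalized signal. For ATAC-seq the authors trimmed reads with cutadapt, aligned them with Bowtie2, removed duplicates with Picard, called peaks with MACS2, compared genotypes with DiffBind and deposited a mean log2 concentration per genotype for each listed peak. Columns of the authors' own comparisons (fold changes, p-values and FDR) were not used. A shift of the ATAC-seq reads for the transposase is not given in the sources used here.

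Every RNA-seq value was a whole multiple of the step of 1 read in its library (100% within 0.01 of a read), so the depth could be recovered. The test was limma with a trend (limma 3.58.1, R 4.3.3) on the log2 of the normalized count plus 1, for the 14459 genes whose mean reached 10. Its sole term was genotype, with Benjamini-Hochberg adjustment over those genes. Fold changes are on that scale, which understates the change of low genes. The fit was tried on simulated data first. Alternatives covered the pseudocount, the filter, the scaling, edgeR 4.0.16 and DESeq2 1.42.0 on recovered reads (2541 and 2422 genes called, beside 2538), the replicate block, the fold limit and each library left out. Differences of ATAC-seq means were computed here and have no error. Gene positions came from RefSeq (GRCm38.p6) and exon lengths from GENCODE M21.

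Genes were named by a rule: the 7 factors, the called members of each list with up to 4 others by mean count, the 3 genes nearest in profile to each called factor, and the listed peaks. The factors and lists were chosen with earlier results of these data known.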

Additional observations from a re-analysis of the deposited data

How the results depend on the processing

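The number of genes called was 2538 and stayed within 1.5 times of that under every alternative except no limit on the fold change, which gave 5887. *Tbx21* and *Bhlhe40* were called under all alternatives tried, *Eomes* under all but 1 and *Irf4* under all but 4. Leaving out each library in turn gave 2 to 4 of 7 factors called, 2162 to 2572 genes called in all and 15 to 23 genes called from the other lists (18 with all libraries, 40 with no fold limit). *Id2* lay so near 0 that its sign turned with TMM factors (-0.0045), edgeR (-0.015), DESeq2 (-0.014) and without WT replicate 1 (-0.043), WT replicate 3 (-0.13), UTX TCD replicate 1 (-0.026) or UTX TCD replicate 3 (-0.0039); without WT replicate 2 it was 0.22. *Zeb2* turned without WT replicate 3 (-0.18) or UTX TCD replicate 3 (-0.03) and was 0.23 without WT replicate 2. None of these values was called, and the cause was not tested. Of 43 called list genes and genes of like profile, 30 kept their call under every alternative in which they were tested. Deviations of same-numbered libraries from their genotype means had correlations of 0.31, -0.20 and 0.09 over genes. The first was the highest of all WT and UTX TCD pairings, near that of WT replicate 3 with UTX TCD replicate 2 (0.29). The labels do not say whether the numbers pair the samples, and these correlations cannot decide it. With the replicate block 2474 genes and 4 of 7 factors were called. Of the 26 listed peaks, 15 lay within 50 kb of the start, all 15 of them higher in UTX TCD cells, and 5 differed by over 1, 4 of them higher.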
